A study of Mus musculus with 6 samples.

Results

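The ligands of the tumor necrosis factor (TNF) superfamily are cell surface or secreted proteins by which T cells signal to their neighbours. The 10 ligand genes described here were taken by symbol from the 16281 genes of the count table: Cd40lg, Tnfsf4, Tnfsf8, Tnfsf9, Cd70, Tnfsf14, Tnfsf11, Tnfsf13b, Fasl and Tnfsf10. All 10 symbols were found, and 9 had enough reads to be tested. Tnf, Lta and Ltb, the founding members of the superfamily, are not among the 10 and are given only as a reference.

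The study compared 2 conditions, with 3 RNA-seq samples in each. CD8+ T cells came from the spleens of OT1 mice (C57BL/6, genotype Tg(TcraTcrb)1100Mjb), whose transgenic T-cell receptor recognizes an ovalbumin peptide, so the cells of both groups share 1 receptor specificity. All cultures were activated for 48 h with plate-bound anti-CD3 at 2 μg/ml and soluble anti-CD28 and were expanded for 3 days, with IL-2 at 20 ng/mL. The GSK group received 0.5 μM GSK2879552, an irreversible inhibitor of the histone demethylase LSD1, during both phases, and the Veh group received vehicle. The samples of each group came from separate OT1 mice, and the age of these mice is not given in the sources used here. The comparison asks which genes LSD1 inhibition alters in activated CD8+ T cells.

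TNF superfamily ligands are made as trimers anchored in the membrane, and proteases release some of them as soluble forms. Most receptors of the superfamily recruit TRAF adaptors and switch on NF-kB, which supports survival and cytokine production, whereas those with a death domain, such as Fas, recruit FADD and caspase-8. T cells carry many of the ligands only after stimulation of their antigen receptor, and use them to costimulate each other, to license dendritic cells and B cells, and to kill target cells.

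Counts summed to between 18288447 and 18918811 in the Veh samples and between 19149909 and 19846720 in the GSK samples. The CD8 T cell markers Cd3d, Cd3e, Cd3g, Cd8a, Cd8b1, Cd2, Cd5 and Lck were high in every sample. Their summed level was 3168 to 3310 CPM in Veh and 3061 to 3245 CPM in GSK. Single markers differed between the groups. At edgeR's adjusted p alone (test given below), 4 were lower in GSK, beside 15.5% of all tested genes, and 2 were higher, beside 16.6%. The log2 fold changes were -0.16 for Cd3d, -0.23 for Cd3e, -0.38 for Cd3g and -0.50 for Cd5. Those of Cd2 and Lck were 0.15 and 0.13. Cd3d and Cd2 each lost the adjusted p in at least 1 fit that left out 1 sample. With a limit of 1.5-fold added, 0 of the 8 were called, beside 6.32% of all tested genes. Of the CD4+ T cell markers, Cd4 stayed at or under 1.79 CPM, Foxp3 lay between 1.68 and 4.99 CPM and Zbtb7b between 33.7 and 49.4 CPM. CPM is the number of counts of a gene per 1000000 counts of the sample, with totals scaled by TMM. Fewer cells of one kind and less RNA per cell cannot be told apart in such bulk values.

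LSD1 inhibition was accompanied by higher RNA of 3 ligands and lower RNA of 1. Tnfsf4, Tnfsf11 and Cd40lg were upregulated and Tnfsf13b was downregulated by edgeR's quasi-likelihood test, where a call needed more than a 1.5-fold difference and a Benjamini-Hochberg adjusted p below 0.05. These 3 of 9 tested ligands stand beside 2.22% of all 11698 tested genes upregulated by the same rule, and the 1 downregulated ligand beside 4.09%. In either direction 4 of 9 ligands were called, and 6.32% of all genes. At the adjusted p alone, 4 ligands were higher, where 16.6% of all genes were, and 1 was lower, where 15.5% were (32.1% of all genes in either direction). The additional ligand was Fasl, which rose by less than 1.5-fold. The median log2 fold change of the 9 ligands was 0.31, and that of all tested genes was -0.0039. In 5 of the 9 ligands every GSK sample was above every Veh sample, as in 23.7% of all tested genes, and in 1 every GSK sample was below, as in 23% of them (46.7% in all). Cd40lg passed the filter on low counts only through its GSK samples, so its presence among the tested genes is not independent of its difference.

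**Figure D1:**
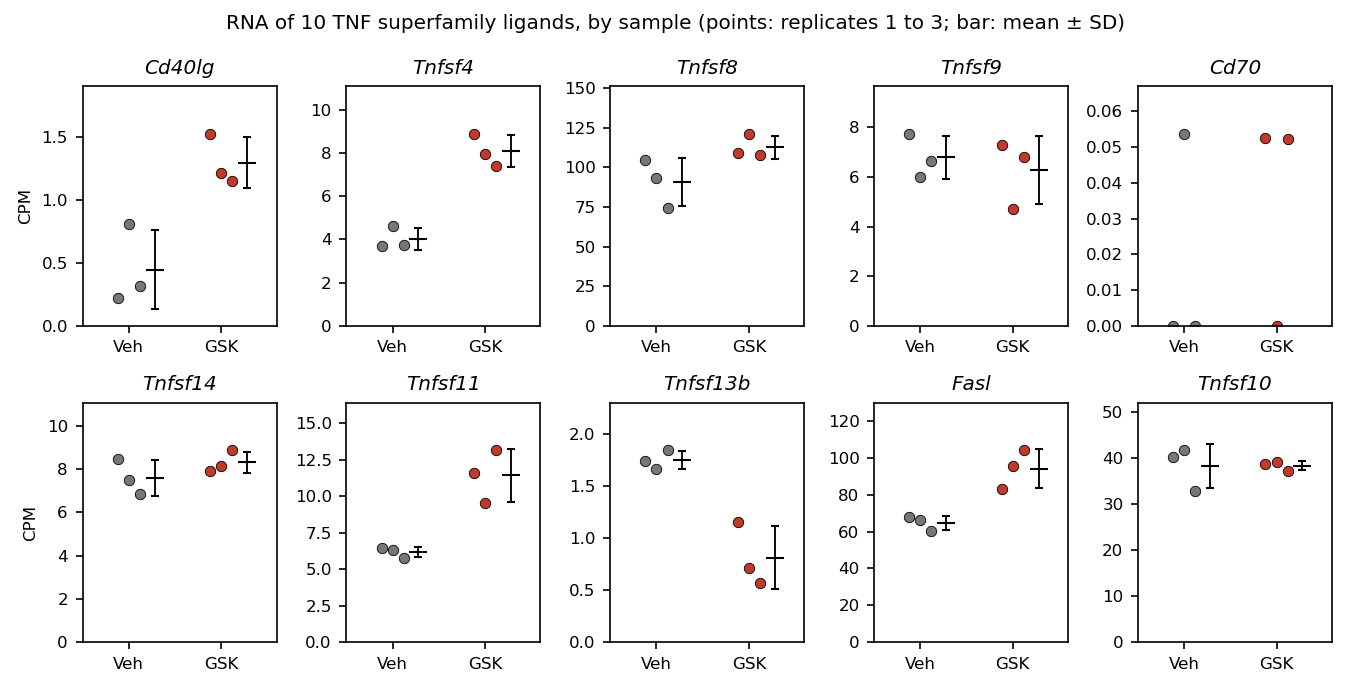
RNA of each ligand in CPM (vertical axes, each from 0) in the 3 Veh and the 3 GSK samples (points), with the mean ± SD beside each group except for Cd70, which had at most 1 count in a sample. The GSK points lie above all Veh points for Cd40lg, Tnfsf4, Tnfsf8, Tnfsf11 and Fasl and below them for Tnfsf13b.

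Tnfsf4 encodes OX40 ligand, which costimulates T cells through the receptor OX40. It lies on the plus strand of chromosome 1 of GRCm38 from 161395409 to 161418410, where GENCODE annotates no other gene. Its counts were 68, 86 and 71 in the Veh samples and 169, 157 and 142 in the GSK samples. Every GSK sample was well above every Veh sample. This equalled 4.01 ± 0.519 CPM in the Veh group and 8.07 ± 0.743 CPM in the GSK group (SD, n = 3 each), a 2.01-fold rise with a log2 fold change of 1.01 ± 0.16 (standard error, SE, edgeR adjusted p = 4.7e-04). Leaving out 1 sample at a time kept the log2 fold change between 0.93 and 1.12, and the adjusted p was at most 0.0052.

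Tnfsf8 encodes CD30 ligand, and per length it was the second most abundant of the ligands. Its counts were 1924, 1735 and 1420 in Veh and 2080, 2392 and 2073 in GSK. The groups did not overlap, but the Veh samples were spread widely, at 90.8 ± 15.1 CPM, against 113 ± 7.19 CPM for the GSK samples (both SD, n = 3). The log2 fold change of 0.31 (standard error 0.12) did not pass edgeR's test (adjusted p = 0.098). DESeq2 gave an adjusted p of 0.0052 for the same difference, and edgeR without Veh replicate 1 gave 0.011. Leaving out any other sample gave 0.072 to 0.27 in edgeR, and edgeR without the filter on low counts gave 0.22.

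The genes of 3 costimulatory ligands, Tnfsf9, Cd70 and Tnfsf14, lie next to each other on chromosome 17, with 38.2 kb between Tnfsf9 and Cd70 and 39.7 kb between Cd70 and Tnfsf14. None of them passed the test. Tnfsf9 encodes the ligand of CD137, and the lincRNA gene Gm11110 overlaps it on the opposite strand. It had 142, 112 and 126 counts in Veh and 139, 93 and 130 in GSK, which overlapped (log2 fold change -0.12 ± 0.18 SE, edgeR adjusted p = 0.65). Tnfsf14 encodes LIGHT, which binds HVEM and the lymphotoxin beta receptor. It had 156, 140 and 130 counts in Veh and 151, 161 and 170 in GSK, which also overlapped (log2 fold change 0.13 ± 0.13 SE, edgeR adjusted p = 0.49). Cd70, the ligand of CD27, had 0, 1 and 0 counts in Veh and 1, 0 and 1 in GSK. Cd70 was therefore not tested, and its level lay below the 0.152 to 0.163 CPM that 3 counts would give in these samples.

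Cd40lg encodes CD40 ligand, known for the help that T cells give to B cells and dendritic cells and more typical of CD4+ than of CD8+ T cells. It lies on chromosome X from 57212143 to 57224042 on the plus strand, with no overlapping gene annotated. Its counts were low, with 4, 15 and 6 in Veh and 29, 24 and 22 in GSK. All GSK samples were above all Veh samples, and Veh replicate 2 was the highest of its group. The level rose from 0.446 ± 0.315 CPM (SD, n = 3) to 1.29 ± 0.200 CPM (SD, n = 3), a log2 fold change of 1.52 ± 0.44 (SE, edgeR adjusted p = 0.018). The call was lost without some of the samples, since edgeR's adjusted p was 0.079 without Veh replicate 1, 0.075 without Veh replicate 3 and 0.081 without GSK replicate 1. Without Veh replicate 2 the fold change grew from 2.87 to 4.75. Cd4, Zbtb7b and Foxp3, markers of CD4+ T cells, summed to 43.1 to 52.9 CPM in Veh and 39.2 to 44.8 CPM in GSK. Most of this was Zbtb7b, at 42.1 CPM on average in Veh and 37.6 CPM in GSK. None of these 3 markers passed the test, with adjusted p-values from edgeR of 0.66 for Cd4, 0.27 for Zbtb7b and 0.82 for Foxp3.

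Tnfsf11 encodes RANKL, which drives osteoclast formation and lymph node development and is also made by activated T cells. It lies on the minus strand of chromosome 14 from 78277445 to 78308043, with no overlapping gene annotated. Counts were 119, 118 and 110 in Veh and 221, 189 and 252 in GSK. The Veh samples were close together and the lowest GSK sample was well above them. Levels were 6.19 ± 0.365 CPM in the Veh group and 11.4 ± 1.79 CPM in the GSK group (SD, n = 3 each), a 1.84-fold rise. The log2 fold change was 0.88 ± 0.14 (SE, edgeR adjusted p = 5.5e-04), and leaving out 1 sample at a time moved it no further than 0.77 and 1.00.

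Tnfsf13b encodes BAFF, a survival factor for B cells that is mainly known from myeloid and stromal cells. It was the ligand that fell, and it was also rare. Counts were 32, 31 and 35 in Veh and 22, 14 and 11 in GSK, so every GSK sample was below every Veh sample. Its level was 1.75 ± 0.0884 CPM in the Veh group and 0.812 ± 0.304 CPM in the GSK group (SD, n = 3 each) (log2 fold change -1.10 ± 0.33 SE, edgeR adjusted p = 0.021). The adjusted p was 0.052 with DESeq2. In edgeR it was 0.058 without Veh replicate 1, 0.063 without Veh replicate 3, 0.054 without GSK replicate 2 and 0.077 without GSK replicate 3. The gene lies on chromosome 8 from 10006467 to 10039072 on the plus strand, where Gm44789, annotated without experimental support, overlaps it on the opposite strand.

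Markers of other cell types that are known to make BAFF were examined beside Tnfsf13b. Of 9 myeloid and dendritic cell markers in the table, 5 were tested and 2 were downregulated, beside 4.09% of all genes. Itgax, which encodes the integrin CD11c, had a log2 fold change of -1.37 (adjusted p = 0.0023, edgeR), and Fcgr3, an Fc receptor, one of -1.21 (adjusted p = 0.036, edgeR). For Fcgr3 the adjusted p was 0.11 in DESeq2 and in edgeR reached 0.17 with 1 sample left out, and 5 of the 6 samples, all but Veh replicate 2, each ended the call when left out. The summed level of the 9 markers was 14.7 to 20.9 CPM in Veh and 11.5 to 15.0 CPM in GSK, and 4 of them, Csf1r, Adgre1, Cd14 and Mpo, were under 1 CPM in every sample. Fcgr3 passed the filter on low counts through its Veh samples. Itgam had a log2 fold change of -0.70 (adjusted p = 0.073, edgeR), with every GSK sample below every Veh sample. It passed both thresholds without GSK replicate 2 (adjusted p = 0.037, edgeR). Cd68, the most abundant of the 5, averaged 8.87 ± 1.84 CPM in the Veh samples and 9.33 ± 0.995 CPM in the GSK samples (SD, n = 3, log2 fold change 0.076, edgeR adjusted p = 0.74). Lyz2 was at 1.47, 0.751 and 0.105 CPM in Veh and 0.105, 0.658 and 0.156 CPM in GSK. Of 4 tested stromal markers 0 were called by edgeR or DESeq2, and 2 had an unadjusted p under 0.05 in edgeR, as had 5026 of all 11698 tested genes. Their median log2 fold change was -0.35, and 0 of them had one above 0. Col1a1 was at -0.76 (adjusted p = 0.051, edgeR), with every GSK sample below every Veh sample. The part of these cells in the fall of Tnfsf13b was not tested.

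Fasl encodes Fas ligand, one of the death ligands by which cytotoxic T cells kill. It was the most abundant of the 10 ligands per length. The gene lies on the minus strand of chromosome 1 from 161780689 to 161788495, 362.3 kb from Tnfsf4. Counts were 1243, 1233 and 1152 in Veh and 1580, 1886 and 1992 in GSK, with a clear gap between the groups. Levels were 64.8 ± 3.73 CPM in the Veh group and 94.1 ± 10.5 CPM in the GSK group (SD, n = 3 each). The 1.45-fold rise passed the adjusted p (4.7e-04, edgeR; log2 fold change 0.54, standard error 0.078) but not the fold change of 1.5. It passed both without GSK replicate 1, where the fold change was 1.54. Tnfsf18, the ligand gene that GENCODE places between Fasl and Tnfsf4, was not among the genes of the count table.

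Tnfsf10 encodes TRAIL, the other death ligand of the 10. Its counts were 741, 778 and 626 in Veh and 739, 777 and 715 in GSK, and the groups overlapped. At 38.3 ± 4.74 CPM in the Veh group and 38.5 ± 1.06 CPM in the GSK group (SD, n = 3 each), the log2 fold change was 0.0063 ± 0.084 (SE, edgeR adjusted p = 0.96). The alternatives kept it between -0.092 and 0.072.

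Because longer transcripts give more reads, levels were compared between ligands only per kilobase of annotated exon (GENCODE M21). In Veh, Fasl was highest at 33.4 ± 1.93 CPM per kb (SD, n = 3), followed by Tnfsf8 at 23.8 ± 3.98, Tnfsf10 at 7.28 ± 0.901, Tnfsf9 at 5.26 ± 0.674, Tnfsf14 at 4.12 ± 0.450, Tnfsf11 at 2.77 ± 0.163 and Tnfsf4 at 2.18 ± 0.282 CPM per kb. Cd40lg at 0.357 ± 0.252 and Tnfsf13b at 0.254 ± 0.0129 CPM per kb were far lower and overlapped each other. The other neighbours in this order did not overlap in Veh. In GSK, Tnfsf11 at 5.11 ± 0.802 and Tnfsf4 at 4.38 ± 0.403 CPM per kb had moved up among Tnfsf9 at 4.85 ± 1.06 and Tnfsf14 at 4.50 ± 0.265 CPM per kb, and neighbours among these 4 overlapped. Fasl at 48.6 ± 5.43 and Tnfsf8 at 29.6 ± 1.89 CPM per kb stayed at the top. Together they made up 72.0% of the summed level of the 10 ligands in Veh and 74.0% in GSK. Outside the 10, Ltb and Lta were higher than Fasl in both groups. Ltb was at 161 ± 7.63 CPM per kb in Veh and 155 ± 10.2 in GSK (SD, n = 3). Lta was at 46.1 ± 7.89 in Veh and 121 ± 18.9 in GSK, and Tnf at 18.1 ± 0.957 and 40.5 ± 3.77 CPM per kb.

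**Figure D2:**
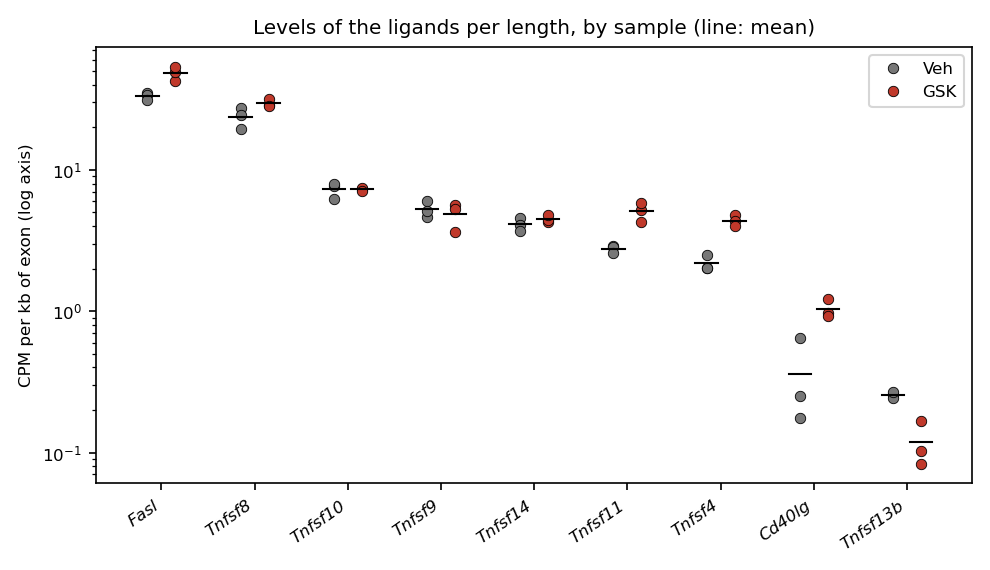
Level of 9 ligands in CPM per kb of exon (vertical log axis) in each Veh and GSK sample (points) with the group means (lines), ordered by the mean in Veh. Fasl and Tnfsf8 lie above the other ligands in both groups, while in GSK Tnfsf11 and Tnfsf4 reach the range of Tnfsf9 and Tnfsf14.

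The promoters of ligands that moved are shown to let their sequence be read beside the values. A RefSeq table of GRCm38.p6 promoters held 6 of the 10 ligands, namely Fasl, Tnfsf10, Tnfsf11, Tnfsf13b, Tnfsf14 and Tnfsf8. Below are the 250 bases before the start of Tnfsf11, which rose, of Tnfsf13b (the first of its 2 listed starts), which fell, and of Fasl, which rose by less than 1.5-fold, each 5′ to 3′ on the strand of its gene. Capitals mark matches on either strand to any of 5 motifs bound by factors of activated T cells: GGAAAA for NFAT, TGANTCA for AP-1, the decamer of NF-kB, with 1 free base, TGTGGT for RUNX and AATCAC for GFI1.
Tnfsf11, chr14:78308044-78308293: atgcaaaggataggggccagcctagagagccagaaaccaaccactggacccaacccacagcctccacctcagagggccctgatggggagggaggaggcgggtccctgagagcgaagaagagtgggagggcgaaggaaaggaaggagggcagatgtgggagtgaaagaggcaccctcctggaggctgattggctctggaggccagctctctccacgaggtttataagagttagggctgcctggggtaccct
Tnfsf13b, chr8:10006217-10006466: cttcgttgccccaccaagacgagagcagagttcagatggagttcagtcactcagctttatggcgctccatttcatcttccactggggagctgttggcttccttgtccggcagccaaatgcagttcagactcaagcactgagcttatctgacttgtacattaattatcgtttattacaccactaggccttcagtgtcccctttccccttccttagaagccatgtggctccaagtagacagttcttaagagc
Fasl, chr1:161788496-161788745: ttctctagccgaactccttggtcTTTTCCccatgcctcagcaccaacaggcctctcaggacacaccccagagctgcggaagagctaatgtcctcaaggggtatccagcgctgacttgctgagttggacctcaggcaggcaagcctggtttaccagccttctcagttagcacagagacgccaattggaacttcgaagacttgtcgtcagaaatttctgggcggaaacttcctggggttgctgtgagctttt
The window of Fasl held 1 match, TTTTCC, the NFAT letters read on the other strand, 227 to 222 bases before the start. The windows of Tnfsf11, of the first start of Tnfsf13b, of Tnfsf8 and of Tnfsf10 held none, and those of Tnfsf14 and of the second start of Tnfsf13b held 1 AP-1 match each. Over all 32851 promoter windows of 250 bases, 20.4% held the NFAT letters, 6.75% AP-1, 0.356% NF-kB, 14.0% RUNX and 9.14% GFI1. The NFAT and NF-kB motifs share letters and can overlap. A match describes letters and not binding.

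The receptors of the ligands, through which T cells also receive these signals, were examined next. The list held 14 receptors of the 10 ligands, without the mouse decoy receptors Tnfrsf22 and Tnfrsf23 of Tnfsf10. All 14 were in the table and 10 were tested. By both thresholds 1 was upregulated and 2 were downregulated, beside 2.22% and 4.09% of all genes. Without the fold limit 4 rose and 3 fell, beside 16.6% and 15.5%. Their median log2 fold change was -0.17. Tnfrsf4, which encodes the OX40 receptor of Tnfsf4, fell from 9.44 ± 1.64 CPM (SD, n = 3) to 5.76 ± 0.555 CPM (SD, n = 3), with samples at 8.05, 9.01 and 11.2 CPM in Veh and 6.40, 5.47 and 5.42 CPM in GSK (log2 fold change -0.71 ± 0.15 SE, edgeR adjusted p = 0.0038). Without Veh replicate 3 its log2 fold change of -0.57 missed the 1.5-fold mark. Tnfrsf13c, the BAFF receptor, also fell (log2 fold change -1.11 ± 0.31 SE, edgeR adjusted p = 0.016), from 2.05 ± 0.592 to 0.946 ± 0.163 CPM (SD, n = 3). Its adjusted p was 0.090 without Veh replicate 2 and 0.070 without GSK replicate 1. Tnfrsf11a, which encodes the RANK receptor of Tnfsf11, was called up at a very low level of 0.394 ± 0.170 CPM in Veh and 0.964 ± 0.192 CPM in GSK (SD, n = 3; log2 fold change 1.28 ± 0.43 SE, edgeR adjusted p = 0.036). Like Cd40lg, Tnfrsf11a passed the filter on low counts only through its GSK samples. DESeq2 gave Tnfrsf11a an adjusted p of 0.11, and in edgeR leaving out any one of 4 samples (Veh replicate 2 or 3, GSK replicate 1 or 2) ended the call, with an adjusted p of up to 0.13.

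Fas, the death receptor of Fasl, was lower by less than 1.5-fold (log2 fold change -0.39 ± 0.10 SE, edgeR adjusted p = 0.012). Tnfrsf10b, the receptor of Tnfsf10, was higher (log2 fold change 0.43 ± 0.095 SE, edgeR adjusted p = 0.0043). Tnfrsf8, the CD30 receptor of Tnfsf8, rose by 0.43 on the log2 scale (adjusted p = 0.018, edgeR), and lost the adjusted p without any one of 4 samples, Veh replicate 1 or any GSK replicate (up to 0.082). Tnfrsf9, the CD137 receptor, was the most abundant receptor per length, at 123 ± 7.47 CPM per kb in Veh and 138 ± 8.93 CPM per kb in GSK (SD, n = 3). Its log2 fold change of 0.16 had an adjusted p of 0.040 (edgeR), 0.065 with the replicate number as a block, and up to 0.19 without 1 sample (Veh replicate 1 or 2, GSK replicate 1 or 3). Cd27 (log2 fold change -0.30, adjusted p = 0.17), Tnfrsf14 (-0.20, 0.080) and Tnfrsf13b (-0.14, 0.12) did not pass edgeR. Tnfrsf14 passed the adjusted p with the replicate block (0.042), without GSK replicate 2 (0.0060) and without Veh replicate 3 (0.042), all in edgeR. Cd27 passed it without GSK replicate 2 (0.022, edgeR). Cd40, Tnfrsf11b, Tnfrsf17 and Ltbr were too low to be tested.

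**Figure D3:**
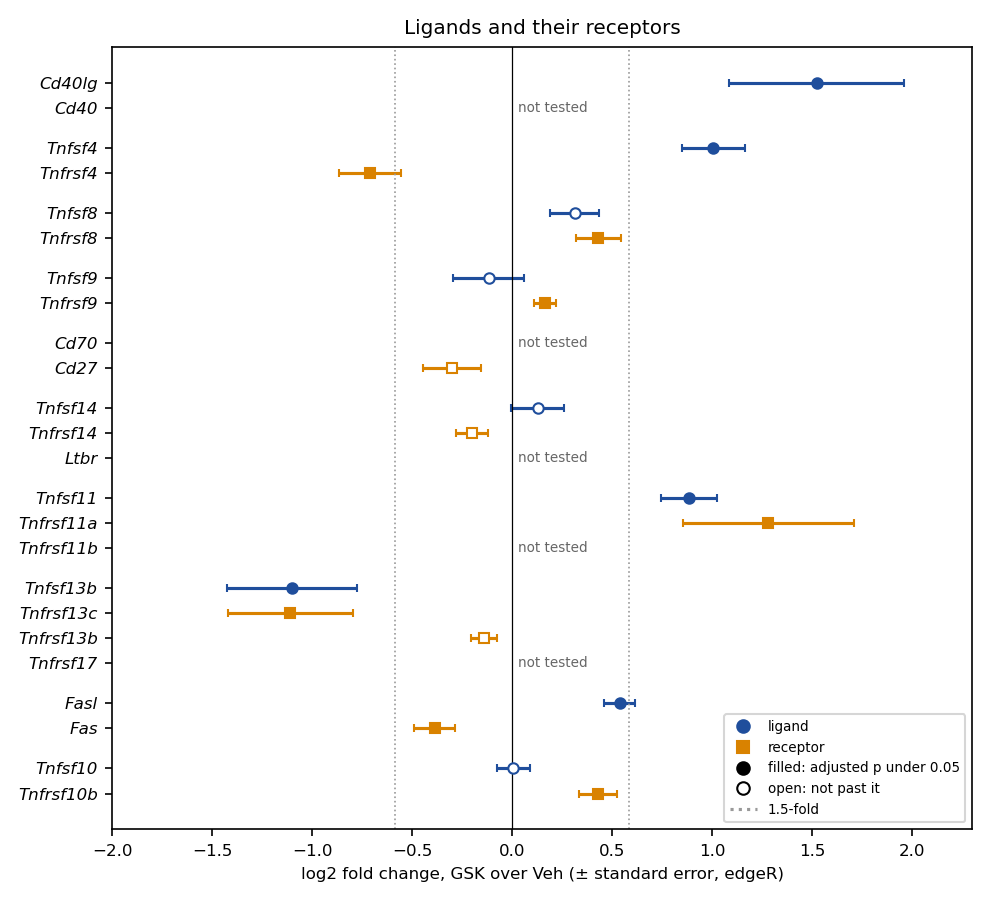
Log2 fold change of GSK over Veh (horizontal axis, ± standard error from edgeR) of each ligand (circles) and, below it, its listed receptors (squares), filled where the adjusted p was under 0.05, with dotted lines at 1.5-fold. Tnfsf4 lies to the right and Tnfrsf4 to the left of 0, while Tnfsf13b and Tnfrsf13c both lie to the left.

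For pairs of ligand and receptor the ratio of their levels per kb was taken in each sample. The ratio of Tnfsf4 to Tnfrsf4 was 0.340, 0.379 and 0.246 in the Veh samples and 1.03, 1.08 and 1.01 in the GSK samples, which is 3.23 times as high on average. The ratio of Fasl to Fas was 3.26, 3.33 and 3.19 in Veh and 5.19, 5.69 and 8.16 in GSK, 1.95 times as high. In both pairs the GSK samples were above the Veh samples. Of 11 such pairs, 3 did not overlap with GSK above, 2 did not overlap with GSK below, and 6 overlapped. The receptors Ltbr, Tnfrsf11b and Tnfrsf17 were left out of the pairs. The pairs of Cd70 with Cd27 and of Cd40lg with Cd40 were kept. Their ratios rest on few counts, at most 1 of Cd70 and at most 5 of Cd40 in a sample. The third pair above was Tnfsf14 to Tnfrsf14, at 1.27 times the Veh ratio. The pairs below were Tnfsf13b to Tnfrsf13b at 0.511 times and Tnfsf10 to Tnfrsf10b at 0.744 times. For single genes the groups did not overlap in 46.7% of all tested genes, and no such share was computed for ratios. The ratios are given as a description, because the lowest two-sided p that an exact permutation test reaches with this number of samples is 0.1.

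Of the 8 other superfamily ligands fixed as a list, 6 were in the table and 3 were tested. By both thresholds 2 were upregulated, beside 2.22% of all genes, and 0 were downregulated, beside 4.09%. These were the cytokine genes Tnf (log2 fold change 1.17, edgeR adjusted p = 6.4e-07) and Lta (1.39, edgeR adjusted p = 0.0043). Ltb at -0.054 did not pass (edgeR adjusted p = 0.47). Tnfsf15, the ligand gene 86.2 kb from Tnfsf8 on chromosome 4, had at most 4 counts in a sample and was not tested, as were Tnfsf12 and Tnfsf13.

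Of the 13 adaptors and effectors below the receptors, 0 were called by both thresholds, with edgeR and with DESeq2, beside 6.32% of all genes in edgeR. An unadjusted p under 0.05 in edgeR was reached by 6 of them, and by 5026 of all 11698 tested genes. Without the fold limit 2 rose and 3 fell, beside 16.6% and 15.5% of all genes. Birc2, an inhibitor of apoptosis protein, had a log2 fold change of -0.29 (adjusted p = 0.0094, edgeR). Traf1 (-0.22), Traf3 (0.21), Fadd (0.28) and Cflar (-0.16) had adjusted p-values between 0.012 and 0.039 (edgeR) that rose above 0.05, with highest values of 0.059 to 0.14, in 1 or more of the fits with 1 sample left out. The samples left out in those fits were Veh replicate 3 for Traf3, Veh replicate 1 and GSK replicates 1 and 3 for Traf1, with Veh replicate 3 added for Fadd and Veh replicate 2 added for Cflar.

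Of 6 proteases known to cut TNF superfamily ligands or to mature them, 0 were called by both thresholds, beside 6.32% of all genes. DESeq2 also called 0. In edgeR 2 had an unadjusted p under 0.05, as had 5026 of all 11698 tested genes. The same number rose at the adjusted p alone, beside 16.6% of all genes, and 0 fell, beside 15.5%. Adam10, which sheds Fas ligand among others, was at a log2 fold change of 0.045 and Adam17, which sheds TNF, at 0.017. Sppl2a, an intramembrane protease that clears the stubs, rose by 0.26 on the log2 scale (adjusted p = 0.0014, edgeR). Sppl2b was at 0.24 (adjusted p = 0.031, edgeR), and up to 0.12 with 1 sample left out. Each sample but Veh replicate 2 brought it above 0.05 when left out.

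Of 18 tested transcription factors that act below the T-cell receptor and costimulation, 1 was called, beside 6.32% of all genes. Counted by adjusted p without a fold limit, 3 rose and 5 fell, beside 16.6% and 15.5% of all genes. Egr2 rose by 0.92 on the log2 scale, with an adjusted p of 0.039 (edgeR), which was 0.071 in DESeq2 and up to 0.14 in the 4 of 6 fits that left out Veh replicate 1 or 2 or GSK replicate 1 or 3. Egr1, at a log2 fold change of 1.33, did not pass edgeR (adjusted p = 0.093). It passed with DESeq2 (adjusted p = 0.029), with the replicate number as a block in edgeR (9.1e-04) and without Veh replicate 3 (0.024). Leaving out any other sample did not bring Egr1 past, with an adjusted p of up to 0.24 in edgeR. Without the filter on low counts it was 0.15 (edgeR). Nfatc2 (0.28) and Rel (0.29) were higher by less than 1.5-fold, with adjusted p-values of 0.0013 and 0.0045 (edgeR). Nfkb1 (-0.29) and Fosl2 (-0.31) were lower, with adjusted p-values of 8.6e-05 and 9.4e-04 (edgeR). Jun (-0.34) had an adjusted p of 0.031 (edgeR), and up to 0.12 without Veh replicate 1 or 2 or GSK replicate 1 or 3. Nfatc3 (-0.14) and Junb (-0.17) were also lower, with adjusted p-values of 0.028 and 0.034 (edgeR). With 1 sample left out these reached 0.14 for Nfatc3 and 0.15 for Junb.

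Genes whose profile over the 6 samples was most like that of each called ligand were sought among those of at least 5 CPM on average. For Tnfsf4 these were Trim44 and Il20rb, for Tnfsf11 Wdr75 and Rbm19, for Cd40lg Sap30bp and Naa38, and for Tnfsf13b Cep170 and Ccdc50. Pearson's r of log2 CPM lay between 0.992 and 0.999 over 6 samples, and all values of a sample share its library and depth. These genes were picked for the highest r among all that were searched, so high values follow from the selection. A high r does not mean a similar fold change. The log2 fold change was 0.22 for Sap30bp and 0.14 for Naa38, beside 1.52 for Cd40lg.

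**Figure D4:**
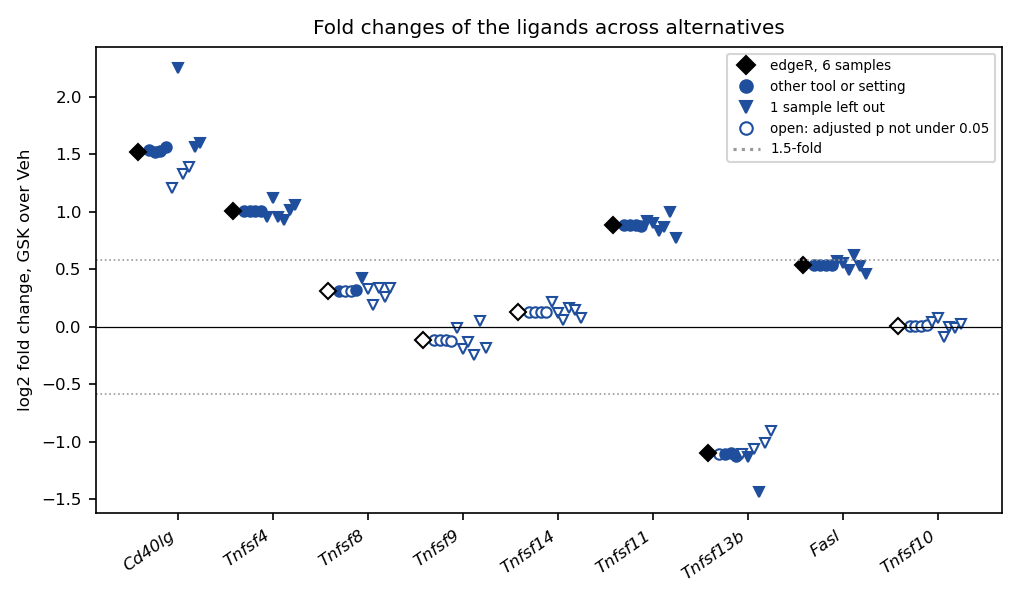
Log2 fold change of GSK over Veh (vertical axis) of the 9 tested ligands in the edgeR fit of 6 samples (black diamonds), with another tool or setting (circles) and with 1 sample left out (triangles), open where the adjusted p was not under 0.05. Tnfsf4, Tnfsf11 and Fasl stay filled throughout, while Cd40lg and Tnfsf13b have open symbols on the same side of 0.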

How the data were processed

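RNA of 6 cultures of OT1 CD8+ T cells, 3 per group, was sequenced from stranded poly(A)+ libraries. The authors trimmed reads with Trimmomatic, mapped them to GRCm38 with hisat2 (2.1.0) and counted reads per gene with HTSeq-count (0.11.2). What was deposited are raw counts of reads per gene. The annotation and the strand setting are not given in the sources used here, so genes overlapping on opposite strands are uncertain.

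Groups were compared in R (4.3.3) with edgeR (4.0.16), with its quasi-likelihood test (robust), TMM factors, filterByExpr (minimum count 10) and Benjamini-Hochberg adjustment over the 11698 genes left. Calls needed more than a 1.5-fold difference and an adjusted p below 0.05. Standard errors (SE) were the log2 fold change divided by the square root of the F statistic. Alternatives were DESeq2 (1.42.0), RLE size factors, no filter, the replicate number as a block, and leaving out each sample. The script was tested on simulated data. No replicate pair agreed within sampling noise (chi-square per degree of freedom 3.95 to 9.02). Exon lengths, coordinates and overlaps came from GENCODE M21, also GRCm38, matched by symbol.

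The ligands, lists and tests were chosen with earlier results of these data known. Named were all 10 ligands, up to 6 genes past the adjusted p per list, Tnfsf15 and Tnfsf18 as neighbours, and the 2 most similar genes per called ligand, of at least 5 CPM. Some further genes of the lists, such as Egr1, Egr2 and Junb, were named outside this rule. Motifs were chosen after values were seen. B cell, NK cell and stromal markers were checked as well. Of 7 B cell markers 2 were tested. Cd22 was up at a log2 fold change of 2.65, and passed the filter on low counts only through its GSK samples. Cd79b was at -0.41 (adjusted p = 0.070, edgeR), with every GSK sample below every Veh sample. Of 4 NK cell markers 2 were tested, with 0 called by edgeR or DESeq2 and 0 at an unadjusted p under 0.05. Of 5 stromal markers 4 were tested, with 0 called by edgeR or DESeq2 and 2 at an unadjusted p under 0.05.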

Additional observations from a re-analysis of the deposited data

How the results depend on the processing

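Over 10 alternatives (DESeq2, RLE size factors, no filter on low counts, the replicate block and 6 fits without 1 sample), Tnfsf4 and Tnfsf11 stayed past both thresholds and Fasl past the adjusted p. With all 6 samples edgeR called 4 ligands, and with 1 sample left out the count lay between 2 and 4. At the adjusted p alone it was 5, and between 3 and 5 with 1 sample left out. The 3 receptor calls became 1 to 3 with 1 sample left out. DESeq2 called 3 ligands, without Tnfsf13b, and the cause was not tested. Tnfsf9 and Tnfsf10, which passed in no alternative, changed sign near 0: Tnfsf9 lay between -0.24 and 0.052 and Tnfsf10 between -0.092 and 0.072 with 1 sample left out. Tnfsf9 was at 0.052 without GSK replicate 2, and Tnfsf10 at -0.092 without Veh replicate 3, -0.0018 without GSK replicate 1 and -0.011 without GSK replicate 2. With the replicate block, 4 ligands, 2 other ligands, 3 receptors and 0 adaptors were called, and 700 genes in all against 739 without it. The block also put Tnfsf8 past the adjusted p (0.017). Across genes, samples with the same number deviated from their groups with correlations of -0.052, -0.081 and 0.16, which is over 0.1 for 1 of 3 pairs, so the number was not taken to pair the samples. The sources used here do not say whether same-numbered samples share a mouse. The order of ligands by level per length kept 8 of 10 places in Veh with the longest transcript in place of all exons, Cd40lg and Tnfsf13b exchanging theirs, and 10 of 10 in GSK. Depth limits Cd40lg and Tnfsf13b, with 25 and 98 counts in the Veh samples together, and leaves Cd70 unmeasured.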
